A study of Schizosaccharomyces pombe with 6 samples.

Results

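The 7 genes described here encode amino acid permeases of fission yeast (*Schizosaccharomyces pombe*): *isp5*, *SPBPB2B2.01*, *SPAC1039.01*, *put4*, *per1*, *aat1* and *cat1*. They were named for how their RNA levels differed between 3 conditions in these same libraries, and they are 7 of the 7268 genes measured. Their levels and differences are therefore given as a description, with no test. All 7 are annotated as amino acid transporters or permeases, and they belong to a list of 30 genes found by the words of their annotation. The other 23 genes of that list were not chosen by their values and were tested.

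The cells were wild type 972 h- and carried no other allele. They were treated with 100 nM rapalink-1 for 5 h, treated with 100 nM rapamycin for 5 h, or left untreated, and for the untreated flasks no solvent is named in the labels. All flasks came from 2 mother cultures in rich YES medium, so each condition had 2 libraries of polyA RNA and 6 were made in all. Rapamycin binds the small protein FKBP12 and in that complex inhibits TOR complex 1, and rapalink-1 is rapamycin joined by a linker to sapanisertib, a compound that competes with ATP in the TOR kinase site. Errors and p-values measure only the spread between these flasks. A difference in every cell cannot be told apart from a larger one in some of the cells, and levels are relative to all polyA RNA.

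Amino acid permeases are membrane proteins that carry amino acids into the cell, and in fission yeast the TOR pathway controls both their genes and their place in the membrane. When nitrogen is plentiful, TOR complex 1 is active and holds the GATA factor Gaf1 in the cytoplasm. When nitrogen is short or the complex is inhibited, Gaf1 enters the nucleus and binds DNA with the core GATAAG, and permeases that gather many amino acids are made. Ubiquitin ligases of the Pub family, with arrestin-related adaptors such as Any1, take permeases off the plasma membrane.

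Because GATAAG is the core of the sequence that Gaf1 binds, these letters were searched on both strands in the 300 bases before each gene's start in the RefSeq annotation of ASM294v3. They were found before *put4*, *isp5*, *per1* and *aat1*, and not in the windows of *cat1*, *SPAC1039.01* or *SPBPB2B2.01*. Each match is printed with its surroundings in 30 bases, read on the strand that holds GATAAG, which is in capitals.

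put4, I:5492862-5492891, minus strand: tacagcagtgctGATAAGagtacactttcc
put4, I:5492912-5492941, plus strand: ttggtgctggctGATAAGagctttgtctca
put4, I:5493024-5493053, minus strand: gcggcggccaacGATAAGcagtattccgga
isp5, I:5466617-5466646, minus strand: ttcaatttacaaGATAAGaacaatttttgc
per1, I:3749327-3749356, minus strand: aataagaggacgGATAAGaaattaaaaacg
aat1, II:113631-113660, plus strand: taacaaaaagtcGATAAGatggtccgcaat

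GATAAG stood in the windows of 4 of the 7 permease genes, in 6 of 21 windows (28.6%) of the other list genes and in 599 of 5108 windows (11.7%) of all protein-coding genes. *put4* had 3 matches, and 4 of the 5108 windows (0.0783%) had 3 or more. The shorter GATAA, which every GATAAG contains, stood in 5 of the 7 windows, in 19 of the 21 and in 3096 of the 5108 (60.6%). The count depends on where a gene is taken to start. The gene models in the deposited tables start further upstream than RefSeq's by 1380 bases for *isp5*, 674 for *per1*, 491 for *SPAC1039.01*, 262 for *put4* and 34 for *SPBPB2B2.01*, and the models of *cat1* and *aat1* reach 315 and 107 bases further at their 5′ ends. With the starts of the deposited models, GATAAG stood in 3 of the 7 windows (*per1* with 2 matches, *put4* and *aat1* with 1 each) and in 538 of the 5108 (10.5%). A match describes letters in a window, and binding was not measured.

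*isp5* had the largest difference of the 7 permeases between rapalink-1-treated and untreated cells. The gene (SPAC1039.09, chromosome I, 5465377 to 5468649, plus strand) encodes a permease known for its induction when nitrogen is short. It measured 208 and 170 FPKM (fragments per kilobase of gene model, scaled to library size) with rapalink-1, 8.09 and 8.54 FPKM with rapamycin, and 6.06 and 7.10 FPKM in untreated cells. Only the rapalink-1 libraries were high, and they rested on 11372 and 9120 reads, against 385 and 408 reads in untreated cells. The mean was 189 ± 27.3 FPKM with rapalink-1 and 6.58 ± 0.734 FPKM in untreated cells (SD, n = 2 each), a ratio of 28.7. On the log2(FPKM + 1) scale, the scale of every log2 difference below, this was 4.65 (SE 0.10). Both rapamycin libraries also lay above both untreated libraries, by 0.30 (SE 0.10).

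*SPBPB2B2.01* (chromosome II, 4457661 to 4459842, plus strand), a predicted amino acid transporter, was weakly expressed in the other 2 conditions. It measured 71.4 and 57.8 FPKM with rapalink-1, 2.30 and 2.78 FPKM with rapamycin, and 2.17 and 3.16 FPKM in untreated cells. The ratio of the means of rapalink-1 and untreated cells was 24.2, and the log2 difference was 4.17 (SE 0.15). The rapamycin and untreated libraries overlapped, with a log2 difference of -0.04 (SE 0.15).

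*SPAC1039.01* (chromosome I, 5444360 to 5447537, plus strand), a predicted permease, had the highest level of the whole list with rapalink-1. It measured 314 and 260 FPKM there, 29.8 and 30.1 FPKM with rapamycin, and 33.5 and 40.3 FPKM in untreated cells. The level with rapalink-1 was 7.77 times that of untreated cells and the log2 difference was 2.93 (SE 0.10). The rapamycin libraries lay below the untreated ones, with a log2 difference of -0.28 (SE 0.10).

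*put4* (SPAC869.10c, chromosome I, 5492902 to 5495156, plus strand) encodes the predicted proline permease. It had the lowest level of the 7 with rapalink-1, 14.1 and 11.2 FPKM, against 2.15 and 2.38 FPKM in untreated cells. With rapamycin it had 2.33 and 2.02 FPKM, and these libraries overlapped with the untreated ones. The log2 difference between rapalink-1 and untreated cells was 2.07 (SE 0.14) and the ratio of the means 5.61.

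*per1* (SPAP7G5.06, chromosome I, 3748767 to 3751729, plus strand) encodes a plasma membrane permease. It measured 80.6 and 72.8 FPKM with rapalink-1, 24.9 and 23.9 FPKM with rapamycin, and 27.3 and 34.1 FPKM in untreated cells. The mean with rapalink-1 was 2.50 times that of untreated cells, with a log2 difference of 1.31 (SE 0.10). With rapamycin the difference ran the other way, at -0.31 (SE 0.10).

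*aat1* (SPBC359.03c, chromosome II, 111007 to 113472, minus strand) encodes a transporter known to move from the Golgi to the plasma membrane when nitrogen runs out. It measured 64.2 and 59.5 FPKM with rapalink-1, 36.8 and 36.8 FPKM with rapamycin, and 44.1 and 48.6 FPKM in untreated cells. This was the smallest difference among the permeases that were higher with rapalink-1, a ratio of 1.33 and a log2 difference of 0.41 (SE 0.06). The log2 difference of rapamycin from untreated cells was -0.32 (SE 0.06), so the 2 compounds stood on opposite sides of untreated cells.

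*cat1* (SPAC869.11, chromosome I, 5489134 to 5491791, minus strand) encodes the cationic amino acid transporter, which takes up arginine and lysine, and was the only one of the 7 that was lower with rapalink-1. It measured 28.8 and 34.96 FPKM with rapalink-1, 82.1 and 77.5 FPKM with rapamycin, and 73.0 and 71.2 FPKM in untreated cells. The mean with rapalink-1 was 31.9 ± 4.36 FPKM, against 72.1 ± 1.296 FPKM in untreated cells (SD, n = 2 each), a ratio of 0.442 and a log2 difference of -1.15 (SE 0.08). The rapamycin libraries lay slightly above the untreated ones, with a log2 difference of 0.15 (SE 0.08).

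**Figure D1:**
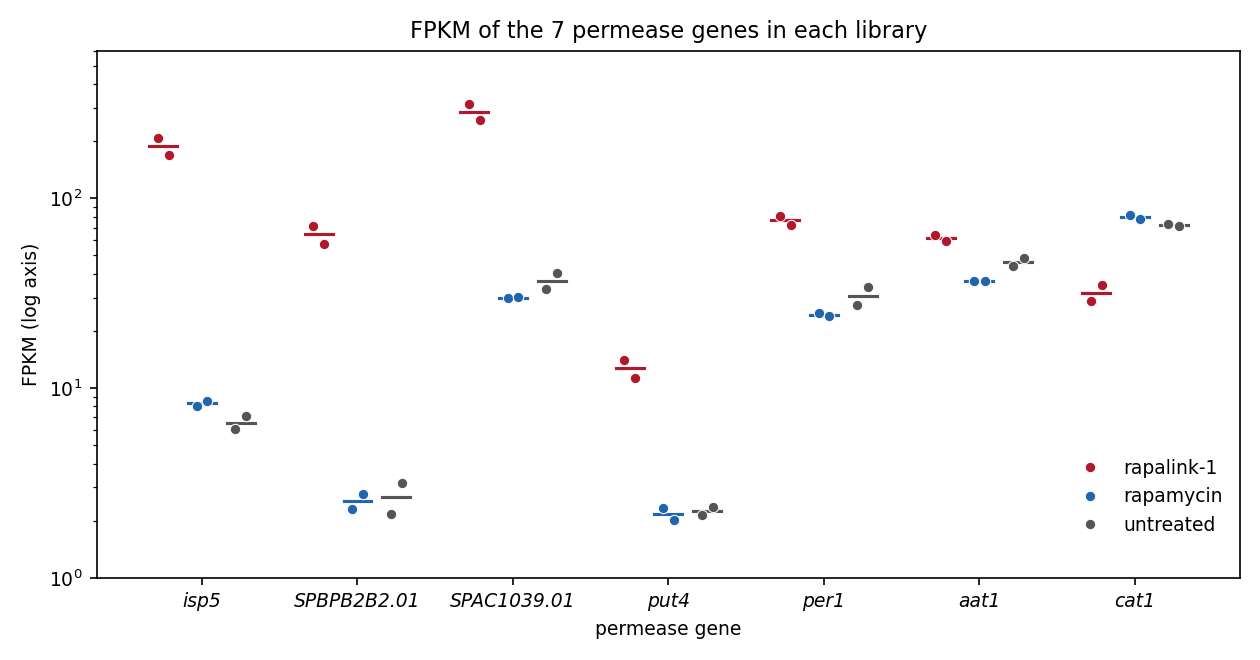
FPKM of each permease gene (log axis) in the 2 libraries of each condition; each point is a library and each bar the mean of its condition, with rapalink-1 in red, rapamycin in blue and untreated cells in grey. The red points lie above the others in 6 genes and below them in cat1, at 28.8 and 34.96 FPKM against 73.0 and 71.2 FPKM in untreated cells.

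In all 7 genes the 2 rapalink-1 libraries stood apart from the 2 untreated ones, 6 above and 1 below. Of the 4847 genes tested, 36.6% had both rapalink-1 libraries above both untreated ones and 38.6% had both below, and nothing is read from the members' count because the genes were named for this pattern. Against rapamycin the rapalink-1 libraries also lay above in 6 and below in 1, where 34.6% and 35.4% of all tested genes did. The median log2 difference of the 7 was 2.07 against untreated cells and 2.10 against rapamycin-treated cells, and the medians of all tested genes were -0.01 and -0.00. These 2 comparisons share the rapalink-1 libraries.

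Between rapamycin-treated and untreated cells the 7 genes divided otherwise. *SPAC1039.01*, *per1* and *aat1* had both rapamycin libraries below both untreated ones, as 32.8% of all tested genes did, *isp5* and *cat1* had both above, as 31.1% did, and *SPBPB2B2.01* and *put4* overlapped. No difference among the 7 reached 1.5-fold, and the ratios of the means lay between 0.794 (*aat1* and *per1*) and 1.26 (*isp5*).

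Rapalink-1 and rapamycin were given at the same dose for the same time, so their libraries can be set side by side. With a single dose and time, a difference between the compounds cannot be told apart from a difference in how strongly each inhibited TOR. The mean with rapalink-1 was 25.5 times that with rapamycin for *SPBPB2B2.01*, 22.7 times for *isp5*, 9.58 times for *SPAC1039.01*, 5.83 times for *put4*, 3.14 times for *per1* and 1.68 times for *aat1*. For *cat1* it was 0.399 of that with rapamycin. The log2 differences of rapalink-1 from rapamycin were 4.21 (SE 0.15) for *SPBPB2B2.01*, 4.35 (SE 0.10) for *isp5* and -1.303 (SE 0.08) for *cat1*. For *SPAC1039.01*, *per1* and *aat1* the differences between the compounds were larger than those between rapalink-1 and untreated cells, at 3.21, 1.61 and 0.73. That of *cat1* was also larger in size, against -1.15 from untreated cells. For *SPBPB2B2.01* and *put4* the 2 differences were alike within their SE, and for *isp5* the difference between the compounds was the smaller.

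Among the amino acid transporter genes, *cat1* had the highest FPKM of the list in every rapamycin and untreated library, and with rapalink-1 it came 16th and 13th of 29. The ranks leave out *SPAC6G10.06*, an amino acid oxidase that the wording of its annotation had brought into the list. *SPAC1039.01* ranked 1st in both rapalink-1 libraries, and 7th and 6th in the untreated ones. *isp5* ranked 2nd in both rapalink-1 libraries, against 23rd and 22nd in untreated cells, and *per1* came 3rd in both, against 10th and 8th. *SPBPB2B2.01* ranked 4th and 5th with rapalink-1, against 25th and 24th in untreated cells. A permease with a hyphen in its annotation, *SPBC460.01c*, fell outside the list and was added after its values were seen. It measured 62.1 and 64.4 FPKM with rapalink-1, 79.7 and 86.8 FPKM with rapamycin, and 72.8 and 71.4 FPKM in untreated cells. In untreated cells its level and that of *cat1* did not differ beyond their spread. With rapamycin its libraries overlapped with those of *cat1*, at 82.1 and 77.5 FPKM, so the first rank of *cat1* holds within the list only. Within the list, *avt3* stood close behind *cat1* in untreated cells, at 71.1 and 70.4 FPKM against 73.0 and 71.2 FPKM. With 2 libraries, the first rank of *cat1* in untreated cells was thus not resolved.

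The summed FPKM of the 29 genes was 1357 and 1225 with rapalink-1, 702 and 701 with rapamycin, and 689 and 720 in untreated cells. *isp5*, *SPBPB2B2.01*, *SPAC1039.01*, *put4*, *per1* and *aat1* together made up 55.4% and 51.5% of it with rapalink-1, 14.8% and 14.8% with rapamycin, and 16.7% and 18.8% in untreated cells. *cat1* made up 2.12% and 2.85% with rapalink-1, 11.7% and 11.1% with rapamycin, and 10.6% and 9.88% in untreated cells. The sum with rapalink-1 thus held a different leading set of permeases, and its 2 highest genes, *SPAC1039.01* and *isp5*, both lie on chromosome I.

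**Figure D2:**
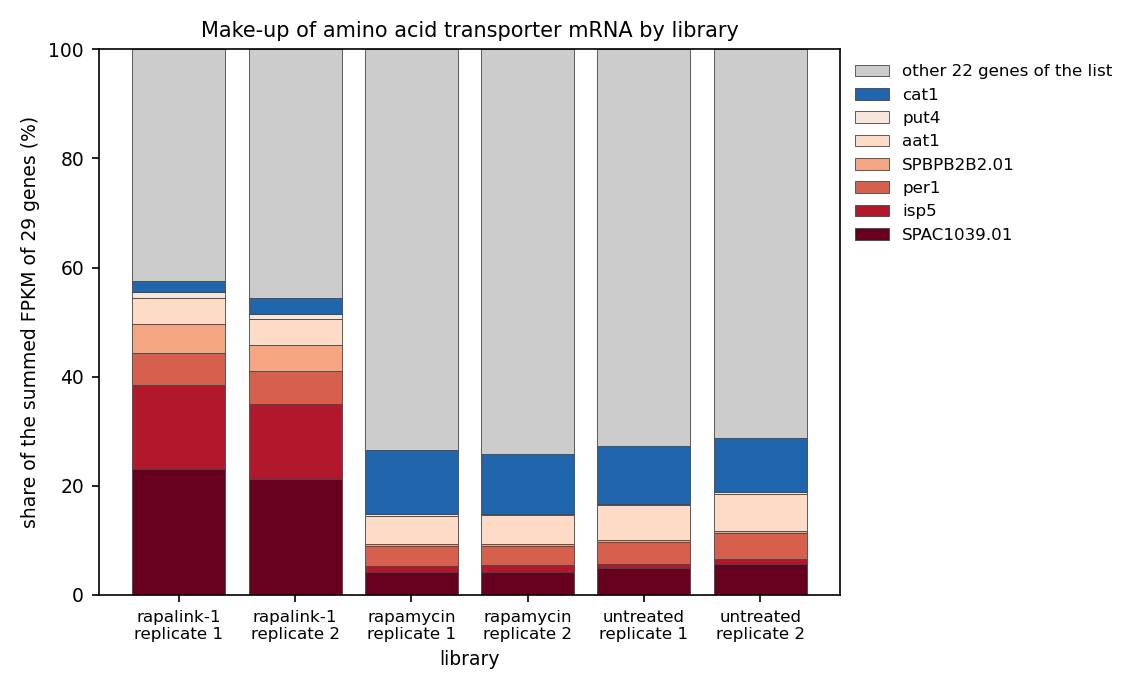
Share of the summed FPKM of 29 amino acid transporter genes in each of the 6 libraries (vertical axis, percent); red shades are the 6 permeases that were higher with rapalink-1, blue is cat1 and grey the other 22 genes. The red shades fill 55.4% and 51.5% of the rapalink-1 bars, against 16.7% and 18.8% of the untreated bars.

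Levels per length depend on the gene models, and those of *put4* and *isp5* are partly covered by models on the other strand. The strand setting of the counting is not given in the sources used here. Of 392 protein-coding models wholly covered by models of the opposite strand, 362 (92.3%) were listed at 0 in all 6 libraries, and of 1804 models without any overlap 13 (0.721%) were. An antisense RNA, SPNCRNA.1091, covers 84.2% of the *put4* model and leaves 356 of its 2255 bases. It measured 0.579 and 0.645 FPKM with rapalink-1, and 0.712 and 0.551 FPKM in untreated cells. If the reads of *put4* came from these 356 bases alone, its level per length would be 89.6 and 71.2 FPKM with rapalink-1 and 13.6 and 15.0 FPKM in untreated cells, with the same ratio. Where the reads lay was not tested, so the rank of *put4* by level is uncertain. Of the *isp5* model, 21.2% is covered by the antisense model SPNCRNA.1086, which is listed at 0. Of the *per1* model 2.26% overlaps SPNCRNA.935, an RNA on the same strand. It measured 10.5 and 9.25 FPKM with rapalink-1 against 0.202 and 0.242 FPKM in untreated cells (log2 difference 3.15). Only through the rapalink-1 libraries did it reach the mean of 1 FPKM required for a test, so no p is given.

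The other genes of the list did not share one direction. Of its 23 genes, 20 passed the filter of a mean of 1 FPKM, *meu22* stayed below it at 0.371 to 0.483 FPKM, and *SPCC777.04* and *SPAC6G10.06* were listed at 0. Other models cover 92.1% of the *meu22* model, 99.3% of that of *SPCC777.04* and 100% of that of *SPAC6G10.06*. With rapalink-1 against untreated cells, 9 of the 20 rose and 7 fell (limma, adjusted p of at most 0.05), where 24.8% of all 4847 tested genes rose and 22.5% fell. With a fold of at least 1.5, 6 rose and 1 fell, where 7.1% and 0.64% of all tested genes did. The median log2 difference of the 20 was 0.19, against -0.01 for all tested genes.

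*SPCC794.04c*, a predicted amino acid transporter, had the largest difference of these 20 genes. It measured 32.2 and 27.7 FPKM with rapalink-1, 11.6 and 12.9 FPKM with rapamycin, and 6.30 and 6.40 FPKM in untreated cells. It rose with rapalink-1 by 2.07 (SE 0.09, adjusted p = 7.03e-07) and with rapamycin by 0.85 (SE 0.09, adjusted p = 0.00118), and the 2 compounds differed by 1.22 (adjusted p = 2.33e-05). Its rapamycin libraries lay between the rapalink-1 and the untreated libraries, as did those of *isp5*. Those of *SPAC1039.01*, *per1* and *aat1* lay below both.

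*SPBC359.01*, the closest relative of *aat1* among the other list genes, lies 3785 bases from it. It rose with rapalink-1, at 58.1 and 53.9 FPKM against 26.1 and 25.4 FPKM in untreated cells (log2 difference 1.09, SE 0.06, adjusted p = 1.84e-06). With rapamycin it had 28.0 and 26.8 FPKM, a difference from untreated cells of 0.09 (95% interval -0.04 to 0.22, adjusted p = 0.317). *agp3*, a weakly expressed predicted transporter, rose with rapalink-1 at 4.62 and 4.03 FPKM against 1.21 and 1.203 FPKM in untreated cells (1.27, adjusted p = 0.000188). With rapamycin it had 1.67 and 1.99 FPKM, a difference of 0.36 (adjusted p = 0.115). Of its model 80.1% is covered by other models.

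*SPCPB1C11.02*, a predicted permease, rose with both compounds, by 0.85 with rapalink-1 (adjusted p = 1.2e-05) and by 0.67 with rapamycin (adjusted p = 0.00052). It measured 55.1 and 57.0 FPKM with rapalink-1, 49.3 and 49.9 FPKM with rapamycin, and 29.1 and 32.8 FPKM in untreated cells. *SPAC11D3.08c*, a permease of unknown substrate, rose by 0.59 with rapalink-1 and by 0.42 with rapamycin (adjusted p = 8.33e-05 and 0.00314). For these 2 genes the compounds themselves differed by 0.18 and 0.17, with adjusted p of 0.0507 and 0.0528. This difference passed the test in 7 of 17 alternative analyses for *SPCPB1C11.02* and in 6 for *SPAC11D3.08c*, so it was not resolved. *SPCPB1C11.03*, a predicted cysteine transporter, rose with rapalink-1 by 0.59 (adjusted p = 0.00118).

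Of 5 tested transporters annotated to the vacuole, 3 fell and 1 rose with rapalink-1, where 22.5% of all tested genes fell and 24.8% rose. *avt3* and *vba2* fell by 0.47 and 0.37 (adjusted p = 3.65e-05 and 0.000593), *atg22* rose by 0.27 (adjusted p = 0.00807), and *fnx1* differed by -0.11 (adjusted p = 0.136). *avt5* fell most, at 5.08 and 6.21 FPKM against 9.14 and 10.3 FPKM in untreated cells (-0.69, SE 0.11, adjusted p = 0.00125). Of the 15 tested list genes with no such location in their annotation, 8 rose and 4 fell, beside the same 24.8% and 22.5%. The arginine transporter gene *can1* fell with rapalink-1 by 0.28 (adjusted p = 0.0102), at 19.1 and 21.6 FPKM against 24.8 and 25.2 FPKM in untreated cells. Its protein is no close relative of Cat1, with 25.7% identical residues.

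With rapamycin against untreated cells, 6 of the 20 other genes passed the test, 4 higher and 2 lower, where 17.7% of all tested genes passed, 10.4% higher and 7.28% lower. At 1.5-fold, 2 of the 20 were higher (*SPCC794.04c* and *SPCPB1C11.02*), where 1.44% of all tested genes were higher and 0.144% lower. Between rapalink-1 and rapamycin, 11 of the 20 passed, 6 higher and 5 lower with rapalink-1, where 19.7% and 17.4% of all tested genes were called (37.2% in either direction). At 1.5-fold, 3 were higher and 1 lower, where 4.52% and 1.2% of all tested genes were. The medians of the 20 were 0.01 and 0.04.

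**Figure D3:**
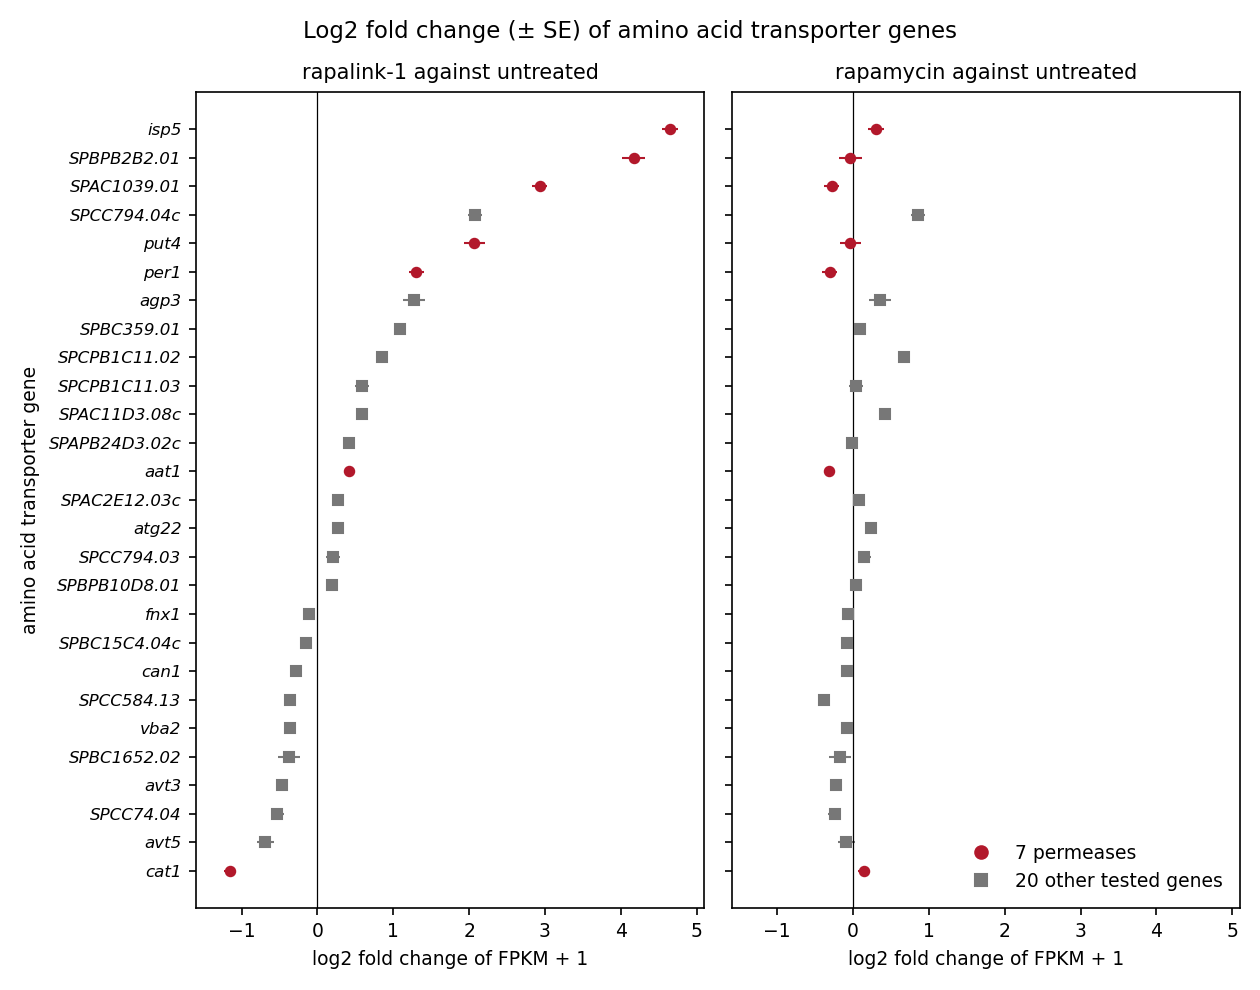
Log2 difference of FPKM + 1 (horizontal axis, bars are SE) of the 7 permeases (red circles) and the 20 other tested list genes (grey squares), for rapalink-1 against untreated cells on the left and rapamycin against untreated cells on the right, ordered by the left panel. isp5 at 4.65 and cat1 at -1.15 end the left panel, and on the right the 7 permeases lie between -0.32 and 0.30.

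Genes known to act on permeases or on TOR were looked at from a list of 14, of which 13 were found by name. *isp7*, an oxygenase gene known to regulate amino acid permease genes, was the one among them that moved most. It measured 156 and 127 FPKM with rapalink-1, 22.1 and 32.1 FPKM with rapamycin, and 48.1 and 76.0 FPKM in untreated cells. It rose with rapalink-1 by 1.21 (SE 0.22, adjusted p = 0.00213) and fell by 1.15 with rapamycin (SE 0.22, adjusted p = 0.0104). Its libraries thus stood in the order seen for *SPAC1039.01*, *per1* and *aat1*, with rapalink-1 above and rapamycin below untreated cells. The rapamycin call was lost without rapamycin replicate 1, where the log2 difference was -0.89.

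*any1*, the arrestin-related adaptor gene whose product acts with the ligase Pub1 on Cat1, stood in the order of *cat1*. It measured 53.6 and 57.0 FPKM with rapalink-1, 77.5 and 81.6 FPKM with rapamycin, and 63.7 and 62.4 FPKM in untreated cells. It was lower with rapalink-1 than with rapamycin by a log2 difference of -0.52 (adjusted p = 8.43e-05) and was higher with rapamycin than in untreated cells by 0.34 (adjusted p = 0.00393). Its difference between rapalink-1 and untreated cells was small (-0.18, adjusted p = 0.0146) and missed the threshold without rapalink-1 replicate 1 (-0.13) or untreated replicate 1 (-0.17).

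The gene of the GATA factor itself, *gaf1*, had 61.6 and 63.9 FPKM with rapalink-1, 59.9 and 60.9 FPKM with rapamycin, and 58.1 and 60.1 FPKM in untreated cells. The difference of rapalink-1 from untreated cells was 0.09 (95% interval -0.01 to 0.19, adjusted p = 0.119). The kinase genes *tor1* and *tor2* differed by -0.03 and 0.08 between rapalink-1 and untreated cells (95% intervals -0.21 to 0.14 and -0.06 to 0.22), and *tsc2*, which encodes a subunit of the complex that holds back TOR, by -0.13 (adjusted p = 0.0794). Its partner *tsc1* rose by 0.28 (adjusted p = 0.00548) and *rhb1*, the GTPase gene between that complex and TOR, by 0.21 (adjusted p = 0.00293). The ligase gene *pub2* rose by 0.35, *pub1* and *pub3* fell by 0.11 and 0.17, *gad8* fell by 0.19 and *fhl1* rose by 0.19 (adjusted p of 0.00228, 0.038, 0.0359, 0.00581 and 0.0202). The calls of *pub1*, *pub3* and *fhl1* were lost in 9, 7 and 2 of 17 alternative analyses. That of *pub1* was lost without any 1 of the 6 libraries (-0.13 to -0.09), that of *pub3* without rapalink-1 replicate 1 (-0.11), untreated replicate 2 (-0.12) or either rapamycin library (-0.17), and that of *fhl1* without rapalink-1 replicate 1 or untreated replicate 1 (0.16 each). In all, 9 of the 13 passed, these 3 and *any1* among them, with rapalink-1 against untreated cells, where 47.3% of all tested genes did, and *isp7* alone reached 1.5-fold.

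Position was not used to name the permeases. *SPAC1039.01*, *isp5*, *cat1* and *put4* lie in that order between 5444360 and 5495156 on chromosome I, and *aat1* and *SPBPB2B2.01* near either end of chromosome II. Their distances from the nearest end were 132, 110, 87.3, 84.0, 111 and 80.0 kb, whereas *per1* lies 1827 kb from one. Within 150 kb of an end, a limit chosen after the distances were seen, lay 6 of the 7, 4 of 22 other list genes with a place on the 3 chromosomes, and 300 of 5125 protein-coding genes (5.85%). Within 100 kb lay 3 of the 7, 1 of the 22 and 190 of the 5125 (3.71%).

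*cat1* and *put4* are next to each other, point away from each other and differed in opposite directions. The deposited models leave 1110 bases between them (chromosome I, 5491792 to 5492901), which hold 1 GATAAG match, 22 bases from the *put4* model and 1082 from that of *cat1*. The 300 bases before each model are shown because the 2 genes share this space. They are read towards each gene, and the match, which lies on the minus strand and so reads CTTATC, is in capitals.

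cat1, I:5491792-5492091, minus strand: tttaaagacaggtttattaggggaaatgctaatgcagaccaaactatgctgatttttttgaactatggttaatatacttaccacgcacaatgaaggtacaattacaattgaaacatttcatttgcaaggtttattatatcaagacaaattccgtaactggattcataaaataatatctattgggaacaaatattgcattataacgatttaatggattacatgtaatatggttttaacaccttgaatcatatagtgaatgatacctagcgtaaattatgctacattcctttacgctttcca
put4, I:5492602-5492901, plus strand: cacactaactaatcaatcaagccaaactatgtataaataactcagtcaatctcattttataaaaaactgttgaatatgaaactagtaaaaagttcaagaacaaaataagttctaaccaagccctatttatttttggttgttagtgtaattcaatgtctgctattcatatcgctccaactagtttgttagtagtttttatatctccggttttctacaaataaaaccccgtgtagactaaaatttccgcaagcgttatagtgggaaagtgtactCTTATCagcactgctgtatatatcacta

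On the other side of *cat1*, 303 bases away on the same strand, *atd2*, a predicted aldehyde dehydrogenase gene, rose with rapalink-1, at 34.3 and 28.4 FPKM against 5.54 and 6.52 FPKM in untreated cells (2.20, adjusted p = 3.62e-06). *cat1* thus stood between *atd2* and *put4*, both higher with rapalink-1, and was itself lower.

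The 3 protein-coding genes on each side of each permease came to 36 different genes other than the 7, of which 31 were tested and 5 were listed at 0. With rapalink-1 against untreated cells, 21 of the 31 rose and 2 fell, where 24.8% and 22.5% of all tested genes did, and their median log2 difference was 1.09. Among the 21 is *fub2*, which reached the mean of 1 FPKM required for a test only through the rapalink-1 libraries. The 2 that fell, *pfl7* and *SPBPB10D8.07c* beside *aat1*, differed by -0.28 and -0.33, and the calls were lost without rapalink-1 replicate 1 (-0.23 and -0.18) or untreated replicate 2 (-0.27 and -0.18), that of *pfl7* also without untreated replicate 1 (-0.29) and that of *SPBPB10D8.07c* without either rapamycin library (-0.33). With rapamycin, 7 of the 31 passed, all higher, and their median was 0.13. Whether genes next to a permease differ from other genes near chromosome ends was not tested.

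The 2 largest rises among the neighbours were in genes near *isp5*. *mmf2*, annotated with isoleucine biosynthesis, 1782 bases away, rose with rapalink-1 at 84.6 and 76.3 FPKM against 4.61 and 4.63 FPKM in untreated cells (3.86, adjusted p = 3.02e-08). *SPAC922.03*, a predicted deaminase gene 8048 bases away, rose at 991 and 852 FPKM against 56.8 and 61.1 FPKM in untreated cells (3.95, adjusted p = 1.16e-08). On the other side, *SPAC1039.07c*, a possible transaminase gene, and *SPAC1039.06*, a predicted alanine racemase gene, rose by 2.71 and 2.00 (adjusted p = 2.14e-07 and 3.09e-07). Of the other 2 neighbours, the predicted alpha-glucosidase gene *gto1* rose by 0.39 (adjusted p = 0.00286) and *SPAC1039.08* was listed at 0.

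*SPAC1039.02*, a predicted phosphatase gene 1197 bases from *SPAC1039.01*, rose by 3.00, close to the 2.93 of the permease, and reached 1355 and 1070 FPKM with rapalink-1 against 136 and 167 FPKM in untreated cells (adjusted p = 4.2e-07). The next genes on that side, *SPAC1039.03* and *SPAC1039.04*, differed by 0.27 and 0.04. Next to *aat1*, the alanine racemase gene *alr2* rose by 1.44 (adjusted p = 0.000166).

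The genes adjacent to *SPBPB2B2.01* were *fub2* and *mug180*. *fub2*, which encodes a predicted proteasome regulator, lies 3499 bases away and was weakly expressed. It had 1.95 and 2.64 FPKM with rapalink-1 against 0.326 and 0.566 FPKM in untreated cells (log2 difference 1.19). Only through the rapalink-1 libraries did it reach the mean of 1 FPKM required for a test, so no p is given. *mug180*, a predicted esterase gene 643 bases away, differed by 0.34 (adjusted p = 0.0229). This call was lost with DESeq2 (0.39), with quantile normalization (0.21), and without rapalink-1 replicate 2 (0.28) or untreated replicate 2 (0.29). Further out, the acid phosphatase gene *pho1*, 8607 bases away, rose by 1.72 and the peptidase gene *SPBPB2B2.05*, 6674 bases away, by 2.42 (adjusted p = 4.42e-06 and 4.04e-06). *per1*, the permease far from the ends, had 4 tested neighbours, which differed by -0.17 to 0.05 with adjusted p of 0.181 to 0.724. Of these, *prm1* lies 5187 bases away and *emc5*, *rad50* and *sdh1* 39182 to 44550 bases away, and the 2 coding genes closest to *per1*, *rpl1002* and *lys1*, were listed at 0.

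**Figure D4:**
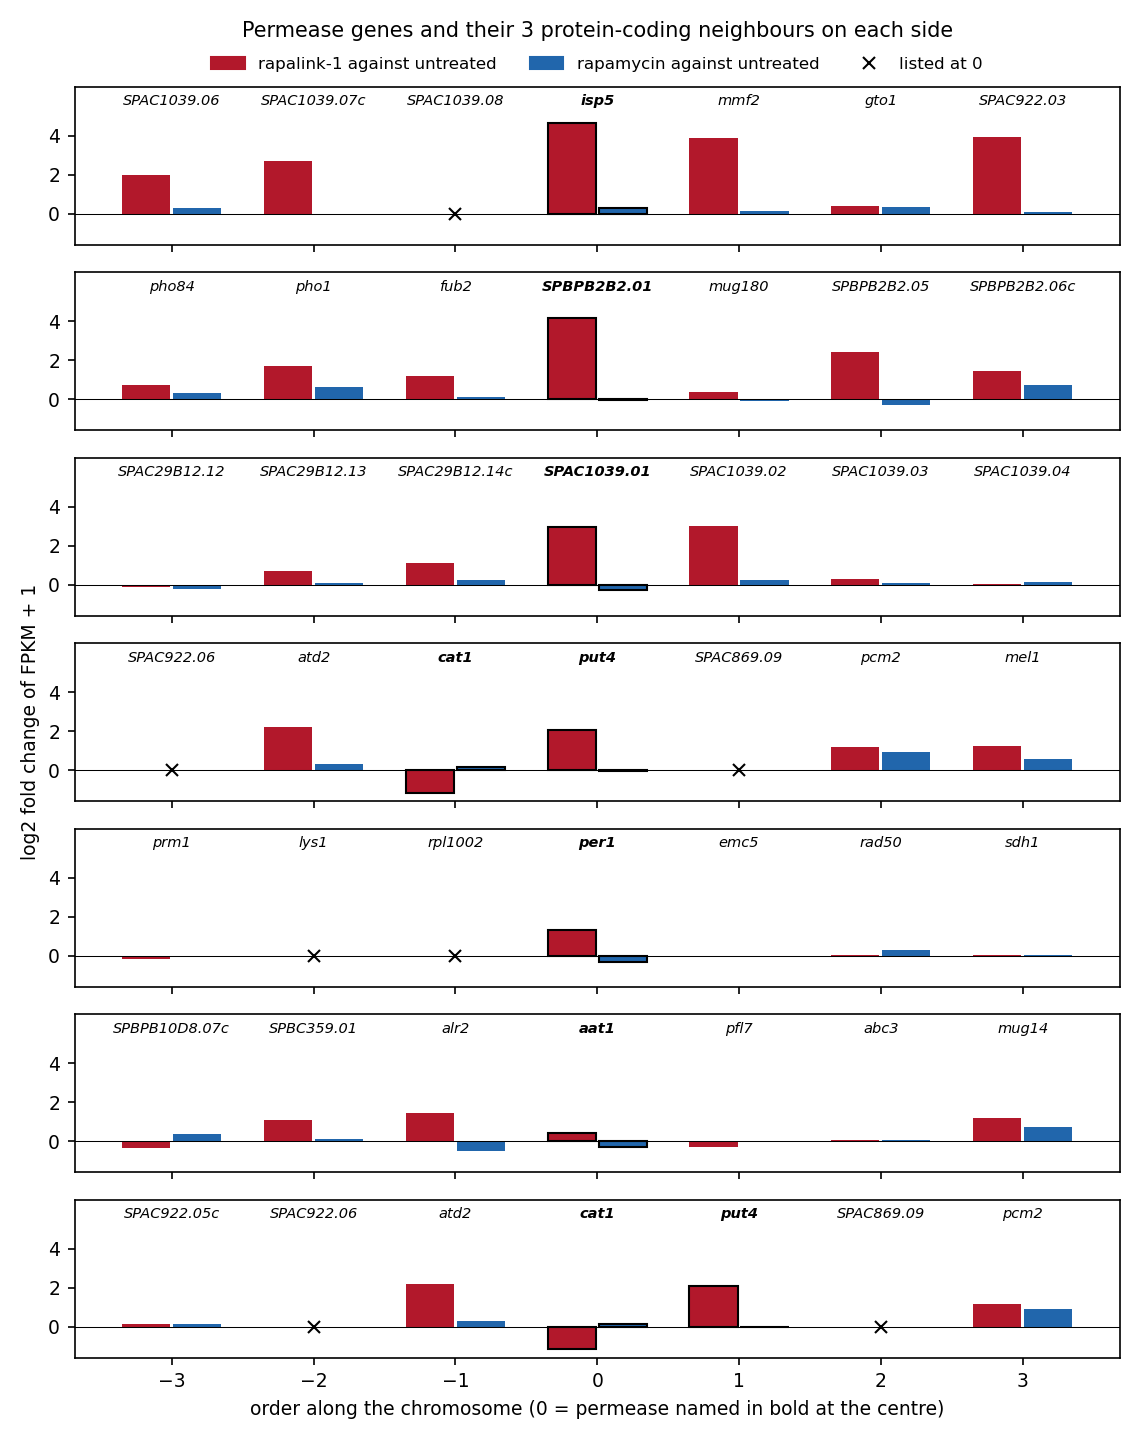
Log2 difference of FPKM + 1 (vertical axis) for rapalink-1 (red) and rapamycin (blue), each against untreated cells, for each permease (outlined bars, bold names) and its 3 protein-coding neighbours on each side in chromosome order (horizontal axis); crosses are genes listed at 0. Tall red bars stand near isp5, with 3.86 for mmf2 and 3.95 for SPAC922.03, and the red bars of the 4 tested neighbours of per1, 3 of them 39182 bases or more away, lie between -0.17 and 0.05.

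Over the 6 libraries, the genes most like *isp5* were sought among 111 protein-coding genes with a mean of at least 5 FPKM and condition means that spread over at least 1 log2 unit. Those with the highest Pearson r were *SPAC922.03*, *SPCC285.05*, *SPAC869.04*, *SPAC1039.02* and *mmf2*, each with r = 0.999. Of these 5, *SPAC869.04*, a formamidase-like gene, and *mmf2* met the minimum only through the rapalink-1 libraries. *SPAC869.04* measured 32.7 and 23.6 FPKM with rapalink-1, 0.529 and 0.387 FPKM with rapamycin, and 0.125 and 0.0924 FPKM in untreated cells, where it rested on 3 and 2 reads. *mmf2* lay close to the minimum outside rapalink-1, at 5.60 and 4.88 FPKM with rapamycin and 4.61 and 4.63 FPKM in untreated cells. *SPAC1039.02*, *mmf2*, *SPAC922.03* and *SPAC869.04* lie on chromosome I between 5448735 and 5512369, and *SPCC285.05*, a predicted purine nucleoside transporter gene, is on chromosome III. For *cat1* the highest r among the 111 was 0.38 (*ecl1*) and the next -0.27 (*aes1*). The required spread left few genes that could stand in the order of *cat1*. Of the 4847 tested genes, 58 passed the test with a level at least 1.5-fold lower with rapalink-1 than with rapamycin, and 31 than in untreated cells. *any1* and *SPBC460.01c*, which had that order, did not meet the required spread. Whether other genes follow *cat1* was thus not tested. For *isp5* the 6 libraries fall into the 2 with rapalink-1 and the other 4, and r rests largely on that gap.

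Proteins translated from the RefSeq coding sequences have 552 to 587 residues, each from a single coding exon. Cat1, which was lower, and Aat1 and Per1, which were higher, are the closest relatives among the 7, with 79.9% identical residues between Cat1 and Aat1, 75.5% between Cat1 and Per1, and 70.9% between Aat1 and Per1. Isp5 and SPBPB2B2.01, which had the largest ratios, share 55.1%, and Isp5 and Cat1 share 50.5%. Put4 shares 32.4% to 35.5% with the other permeases except SPAC1039.01. SPAC1039.01 shares 20.2% to 26.0% with the other 6 and is closest to SPCC74.04, at 59.8%. The gene of that relative fell with rapalink-1, at 9.85 and 11.3 FPKM against 15.4 and 16.2 FPKM in untreated cells (-0.53, SE 0.08, adjusted p = 0.00103), whereas *SPAC1039.01* was higher. None of the 7 has a copy that matches 50% or more of its gene at 95% of bases or more. The nearest pair, *aat1* and *SPBC359.01*, has 84.4% identical bases over 61.8% of *aat1*.

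The libraries held 16674483 and 16527483 reads with rapalink-1, 19959695 and 26321118 with rapamycin, and 19678440 and 17782822 in untreated cells. Ribosomal RNA took 0.117% and 0.124% of reads with rapalink-1, 0.203% and 0.243% with rapamycin, and 0.189% and 0.139% in untreated cells. The 10 most abundant genes held 7.51% to 7.91% of reads. The part of these values in the permease differences was not tested.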

How the data were processed

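The authors captured polyA RNA and sequenced 150-base read pairs. Per the labels, reads were processed with HISAT2 2.0.5, StringTie 1.3.3b, featureCounts 1.5.0-p3 and DESeq2; the genome build and strand setting are not given in the sources used here. The authors deposited FPKM of 7268 genes in 6 libraries, and tables for 3 comparisons with read counts, normalized counts (a signal), log2 fold changes and p-values. The authors' log2 fold changes and p-values were not used. FPKM times model length gave whole reads for 100% of values (tolerance 1e-06), and all 20656 deposited counts equalled them.

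Median-of-ratios factors were applied to the FPKM, 1 was added and log2 taken. Genes with a mean of at least 1 FPKM (4847) were fitted with limma 3.58.1 in R 4.3.3 over all 6 libraries, with an intensity trend and Benjamini-Hochberg adjustment over all tested genes at 0.05, since depths of 16527483 to 26321118 reads were known only through FPKM for most genes. Every adjusted p comes from this fit. Alternatives were count tests of the whole reads (edgeR 4.0.16, DESeq2 1.42.0), another pseudocount (0.1), other filters on low values, other scalings and designs, and leaving out each library.

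The members and lists were chosen with earlier results of these data known. Named are all 7 permeases, other list genes past 0.05 and 1.5-fold in any comparison, the regulators, neighbours, and the 5 genes most like *isp5* and *cat1*; other names were chosen after their values were seen. Of the gene IDs, 6846 were found in ASM294v3 and 99.5% of these shared a start or an end with it. Sequences are from that genome (RefSeq), handled with Biopython 1.88 and BLAST 2.17.0; coordinates of genes are those of the deposited models.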

Additional observations from a re-analysis of the deposited data

How the results depend on the processing

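Over 17 alternatives, the log2 differences of the 7 permeases between rapalink-1 and untreated cells kept their sign, at 4.504 to 4.85 for *isp5*, 3.97 to 4.61 for *SPBPB2B2.01*, 2.80 to 3.07 for *SPAC1039.01*, 1.90 to 2.50 for *put4* (16 alternatives, since it fell out at a mean of 10 FPKM), 1.15 to 1.46 for *per1*, 0.34 to 0.48 for *aat1* and -1.29 to -1.02 for *cat1*. Between rapamycin and untreated cells the sign turned in 2 alternatives each for *SPBPB2B2.01* (-0.24 to 0.15) and *put4* (-0.15 to 0.04). The count of all genes called between rapamycin and untreated cells, 859, was 413 without the intensity trend and ranged over 240 to 982 when each library was left out, with 487 without rapamycin replicate 1, 240 without rapamycin replicate 2, 392 without untreated replicate 1 and 446 without untreated replicate 2; the cause was not tested. Among the called genes, quantile normalization gave a share of higher calls of 38.8% in place of 52.4% for rapalink-1 against untreated cells and 41.6% in place of 53.1% for rapalink-1 against rapamycin, and of the other transporters called between rapamycin and untreated cells 50.0% in place of 66.7% were higher. Without the trend 70.5% in place of 58.9% of the genes called between rapamycin and untreated cells were higher. The other transporters called numbered 14 to 18 for rapalink-1 against untreated cells, 4 to 8 for rapamycin against untreated cells and 8 to 13 between the compounds. Of 120 differences of other named genes, 91 kept their side of the threshold in every alternative, 18 lost the call in some, 11 gained it in some and none turned round while called. *agp3* passed between rapamycin and untreated cells with edgeR and DESeq2 (0.62 and 0.61), and *isp7* did not without the trend (-1.15). Same-numbered replicates did not deviate together over 4847 genes (r = 0.041, 0.001 and -0.011), and the labels do not say that a number marks a mother culture. With the replicate block, 864, 2288 and 1791 genes were called for rapamycin against untreated, rapalink-1 against untreated and rapalink-1 against rapamycin, and 6, 16 and 11 of the other transporters. Under the block the difference of *SPCPB1C11.02* between the compounds (0.18) passed the test. Depth limits the weakly expressed genes most. For *agp3* and *meu22*, other models also cover 80.1% and 92.1% of the gene model, and the parts of depth and of this overlap in their low values were not tested.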
